A study of Homo sapiens with 14 samples.

Results

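Lysosomal genes were followed as a group of 45 genes, chosen by symbol among the 36555 gene IDs of the deposited count table: 8 proteases, 14 hydrolases of glycans, 6 lipid hydrolases and their cofactor PSAP counted together, 9 membrane and sterol transport proteins, 4 parts or partners of the proton pump, and 4 regulators including progranulin (GRN). All 45 were in the table and all passed the filter on low counts, with 22179 genes tested. RNA came from HT-29, an established human colorectal carcinoma line, labelled wild type. The study's question was how liproxstatin-1 and ferrostatin-1, both inhibitors of ferroptosis, come to act differently in apoptosis that TNF-a, an inflammatory cytokine, brings about in this line. The 14 libraries fell into 6 groups. Those with TNF-a at 100 ug/ml (as labelled) had 20 uM liproxstatin-1 (2 libraries), 20 uM ferrostatin-1 (3) or no inhibitor (2). Those without TNF-a had 20 uM liproxstatin-1 (2), 20 uM ferrostatin-1 (2) or 0.1% DMSO as control (3). Treatment with TNF-a or an inhibitor lasted 72 h. The labels give no time for the controls and name DMSO only for them. The replicates are called technical in the series' design, so the p-values measure only the spread between these libraries. In bulk RNA, fewer cells of a kind and less RNA per cell cannot be told apart.

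The lysosome is the acidic compartment in which proteases, glycosidases and lipases break down material delivered by endocytosis and autophagy. Its membrane proteins shield the membrane and export sterols, amino acids and ions, and a vacuolar ATPase pumps in the protons that the enzymes need. The transcription factors TFEB and TFE3 bind a palindromic promoter element, the CLEAR element, in many of these genes, and folliculin (FLCN) acts with mTORC1 at the lysosomal surface to keep both factors out of the nucleus. Lysosomes also hold much of the cell's redox-active iron and release cathepsins when their membrane is damaged.

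Promoter sequences are shown for the genes that carry the core of the CLEAR element, since most of them moved the same way with TNF-a. RefSeq (GRCh38.p14) gave windows of 300 bases, 250 before to 50 after a start, for 35 of the 45 genes. Both strands were searched for 3 nested palindromes: the core TCACGTGA, CACGTG inside it, and the longer form of the core with a G before it and a C after it. Thus each match of a longer one is also a match of the shorter ones. TCACGTGA was in a window of 7 of the 35 genes (20.0%), against 1.18% of the 27305 genes with a window. The longer form was in 3 of them (8.57% against 0.421%) and CACGTG in 10 (28.6% against 8.77%). The element is known from many of these genes, as given above, so a higher share than among all genes could be foreseen. By response to TNF-a, taken from the averaged comparison of TNF-a libraries, TCACGTGA was in 6 of 19 genes that rose, 0 of 4 that fell and 1 of 12 not called. The share among all genes that rose is not given here. The following stretches of 40 bases are centred on TCACGTGA, in capitals, upstream of the start in 6 of the 7 genes, and the base given is that of the first capital relative to the start.
ATP6V0D1, chr16:67481194-67481233, minus strand, motif at base -60: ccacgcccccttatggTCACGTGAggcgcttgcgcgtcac
CTSA, chr20:45891293-45891332, plus strand, motif at base -26: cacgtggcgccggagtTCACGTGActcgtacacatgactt
GAA, chr17:80101488-80101527, plus strand, motif at base -77: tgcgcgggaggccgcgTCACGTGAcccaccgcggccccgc
GAA, chr17:80101533-80101572, plus strand, motif at base -32: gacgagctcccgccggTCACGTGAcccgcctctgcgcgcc
GALNS, chr16:88857099-88857138, minus strand, motif at base -175: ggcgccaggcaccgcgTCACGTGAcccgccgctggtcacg
LAMP1, chr13:113297194-113297233, plus strand, motif at base -29: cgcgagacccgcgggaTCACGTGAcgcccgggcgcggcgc
MCOLN1, chr19:7522566-7522605, plus strand, motif at base -42: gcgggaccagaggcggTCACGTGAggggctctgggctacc
Matches in CLN3 (first base at -2 and 6 relative to an annotated start) and a further match each in LAMP1 (-2) and MCOLN1 (-15) are not shown. The longer form is found in GALNS, at both places in GAA and in the further match of MCOLN1. Among the genes shown, GAA is the acid alpha-glucosidase of glycogen, GALNS a sulfatase of keratan sulfate and MCOLN1 a calcium channel of the lysosomal membrane. A match is a run of letters and says nothing about binding in these cells.

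Total counts per library were 59913850 to 75838597, and the 45 genes held 0.638% to 0.967% of them. The label was checked against markers of other cells. KRT8, an epithelial keratin, stood at 4788 to 7362 CPM (counts relative to the scaled library total) and EPCAM at 427 to 543 CPM, while PTPRC, the pan-leukocyte antigen, had no count in 13 of 14 libraries. Other genes of the leukocyte list did have counts. Summed leukocyte markers were 771 to 1147 CPM, most of it LYZ at 762 to 1137 CPM, and CD14 was at 8.29 to 12.6 CPM. Of 11 epithelial markers, 4 fell with TNF-a on average (CDH1 at -0.85, VIL1 at -0.61, LGALS4 at -1.86 and GPA33 at -1.57 on the log2 scale) and 7 were not called. Summed fibroblast markers were 24.6 and 45.3 CPM under TNF-a alone and 2.53 to 16.5 CPM in every other library, with COL1A1 the most abundant at 14.2 and 23.3 CPM. Summed endothelial markers ran from 0.905 to 46.0 CPM and differed within groups, as did KRT81, a hair keratin picked after its values were seen (57.1 and 1.45 CPM in the 2 ferrostatin-1 libraries). TNF-a library 1 stood apart from the other libraries on the second principal component (121, against 19.7 in TNF-a library 3 and -37.8 to 10.2 in the rest). It was the library with the highest level for 28 of the 45 lysosomal genes (62.2%), against 19.6% of all tested genes. The part of these markers in the results was not tested. Totals of the 45 genes called by edgeR are given with and without this library for 3 kinds of comparison. These are TNF-a alone against control, TNF-a averaged over backgrounds, and an inhibitor added to TNF-a. Counts of further gene lists are given with all libraries only.

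**Figure D1:**
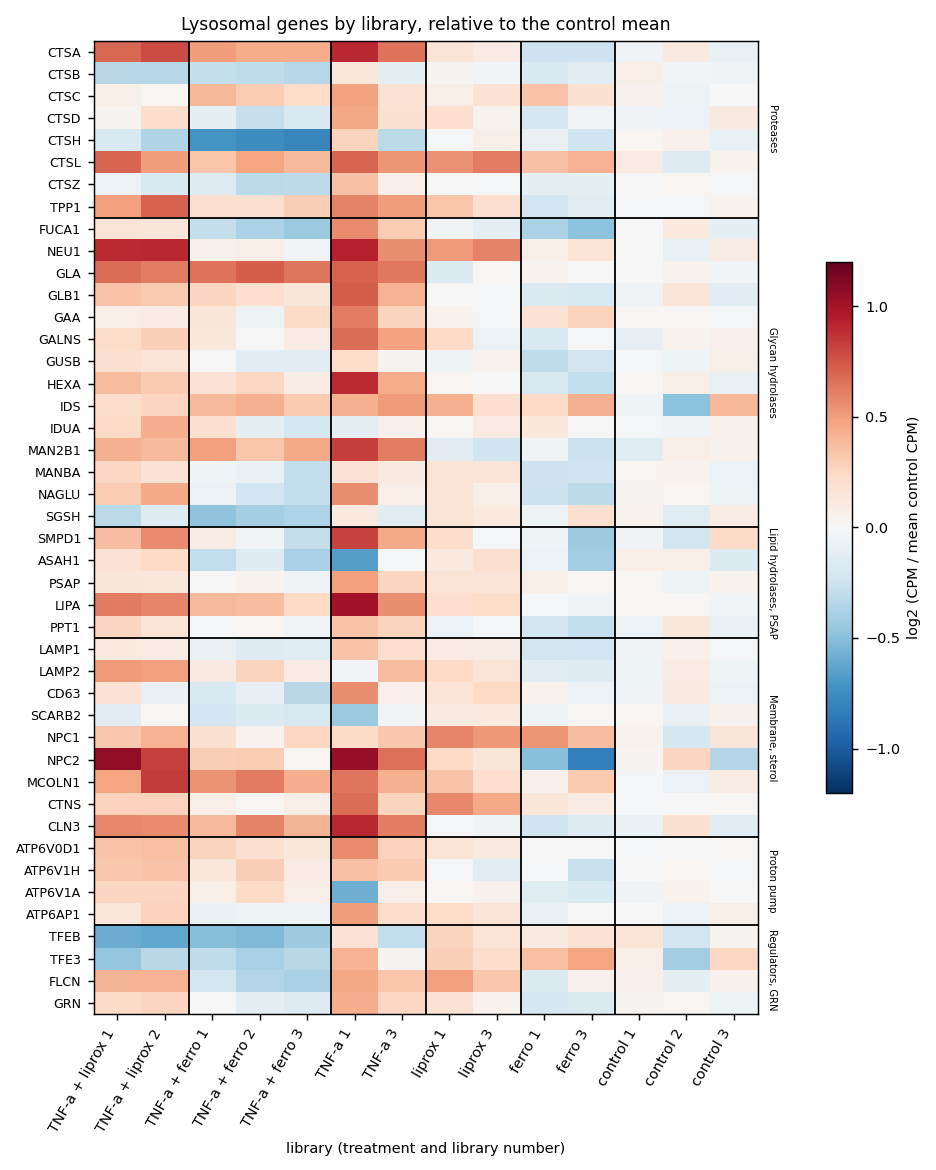
Log2 of normalized CPM over the mean control CPM for 44 lysosomal genes (rows, by role; GALC, which had 0 counts in some libraries, is left out) in the 14 libraries (columns). Most rows are red in TNF-a library 1, TFEB and TFE3 are blue in the 5 libraries that had TNF-a with an inhibitor, and NEU1 and FLCN are red under TNF-a plus liproxstatin-1 but not under TNF-a plus ferrostatin-1.

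Per unit of length, the most abundant of these mRNAs in control cells encoded PSAP, the precursor of the saposins that help lipid hydrolases, and the aspartic protease CTSD, at 294 and 292 deposited FPKM (fragments per length of transcript and depth of library), and the ranges of both over the 3 control libraries overlapped. The carboxypeptidase CTSZ followed at 198 FPKM, GRN at 164 FPKM and the tetraspanin CD63 at 125 FPKM, without overlap between neighbours. The median of the 45 genes was 11.7 FPKM, against 1.52 FPKM over all tested genes. The lowest were MCOLN1 at 2.08 FPKM and GALC, the galactocerebrosidase, at 0.0517 FPKM, the single gene below 1 FPKM. TFE3 was at 32.1 FPKM and TFEB at 4.71 FPKM in controls, with no overlap between them. From PPT1 (59.0 FPKM) downward most neighbours in this order overlapped in their control ranges.

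TNF-a was compared with no TNF-a in 3 backgrounds (no inhibitor, ferrostatin-1, liproxstatin-1) and averaged over them. On that average TNF-a raised 23 of the 45 lysosomal genes and lowered 6. That is 64.4% called, against 33.9% of all tested genes (17.6% higher and 16.2% lower). The 45 genes had a higher median level in controls than all tested genes (11.7 against 1.52 FPKM). Shares of all genes, here and below, are not matched for level, and the part of level in them was not tested. The highest of the 45 estimates was 0.83 on the log2 scale, for NPC2, and the median over the 45 genes was 0.14, against 0.0051 over all genes. On average TNF-a raised carboxypeptidase CTSA, the glycosidases GLA, MAN2B1 and HEXA, the lipase LIPA and the membrane proteins NPC2 and CLN3. It lowered the transcription factors TFEB and TFE3 on average. None of the 6 genes that fell on average was called lower for TNF-a alone against control. The 29 called genes were 22 to 34 when each library was left out in turn, and 29 without TNF-a library 1. The calls of CTSB, GUSB, NAGLU, LAMP1 and SCARB2 were lost in 10 to 16 of 20 alternatives, those of CTSH, CTSL and SMPD1 in 2 to 5, and the other 21 in 0.

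Without an inhibitor, TNF-a raised 26 genes and lowered 0 relative to control (57.8% called, against 14.7% of all genes, 8.24% higher and 6.44% lower), with a median log2 fold change of 0.36. Within ferrostatin-1, TNF-a raised 8 and lowered 4 (26.7%, against 18.1% of all genes, 8.76% higher and 9.36% lower), with a median of 0.064. Within liproxstatin-1 it raised 7 and lowered 3 (22.2%, against 14.6% of all genes, 7.57% higher and 7.03% lower), with a median of 0.14. These 3 comparisons share no library. The count of 26 became 13 without TNF-a library 1, 15 without control library 1, 34 (31 higher and 3 lower) without TNF-a library 3, and 0 when the TNF-a and control groups were fitted without the other 4. Within ferrostatin-1 the count became 6 without either ferrostatin-1 library, and within liproxstatin-1 it became 3 or 4 without any single library of that pair of groups. Both counts became 20 without either TNF-a library, which enters them through the shared estimate of spread. The effect of TNF-a was not shown to differ between backgrounds: the interaction was called for 0 of the 45 genes with ferrostatin-1 and 0 with liproxstatin-1 by edgeR's quasi-likelihood test (0.00451% and 0% of all genes), although 20 and 16 genes had an unadjusted p below 0.05, DESeq2 called 8 and 5, and limma voom 0 and 0. Without TNF-a library 3, which leaves 1 library in that group, neither interaction count stayed at 0. The share of all genes called in that refit is not given here.

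**Figure D2:**
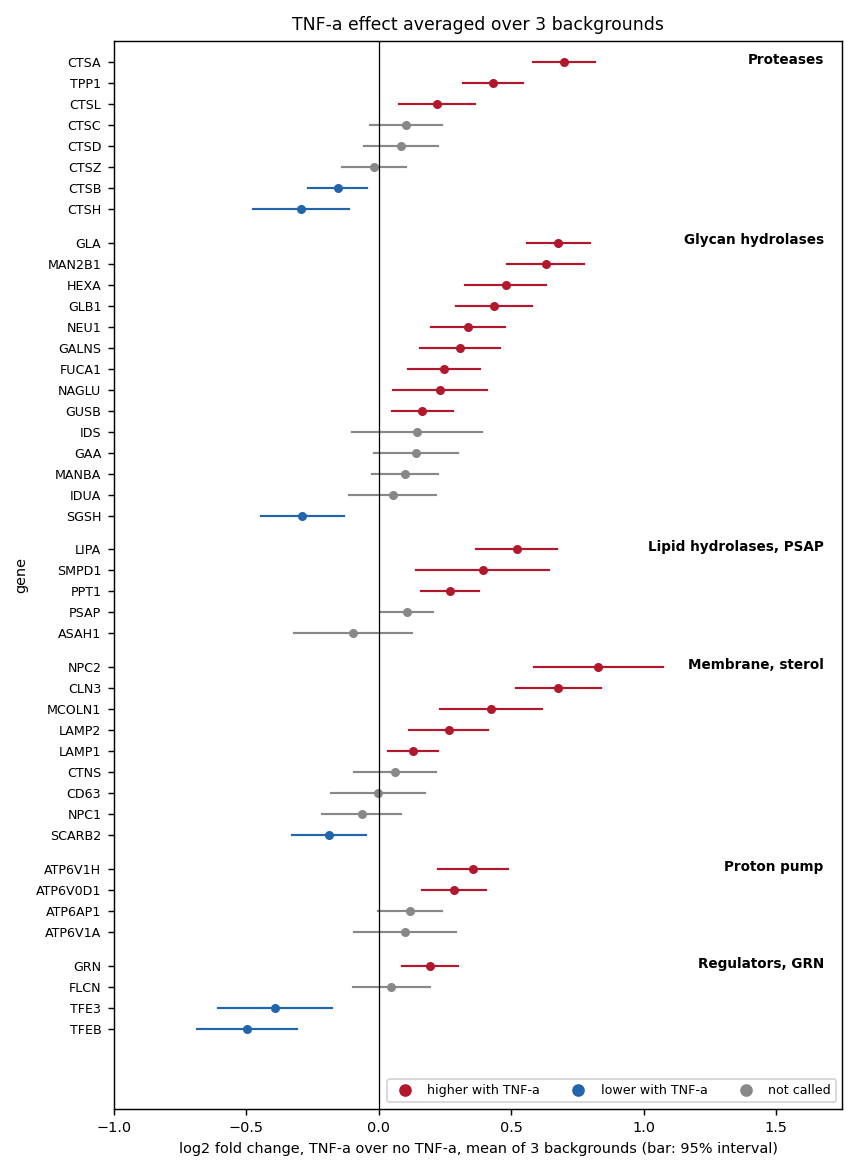
Log2 fold change of TNF-a over no TNF-a, averaged over 3 backgrounds, for 44 lysosomal genes by role (GALC left out). Points are estimates from edgeR, bars are 95% intervals, and colours give calls at an adjusted p below 0.05. In each of the first 5 roles more genes are called higher than lower, and TFEB and TFE3 lie below 0.

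Of the 8 proteases, 3 rose on average with TNF-a (CTSA, TPP1 and CTSL), 2 fell (CTSH and CTSB) and 3 were not called. CTSA, a serine carboxypeptidase that also protects the galactosidase and sialidase of its complex (ENSG00000064601, chromosome 20, 45890144 to 45898820, plus strand), had 394 and 419 CPM under TNF-a plus liproxstatin-1, 345, 333 and 332 under TNF-a plus ferrostatin-1, and 458 and 384 CPM under TNF-a alone. CTSA without TNF-a was at 272 and 262 under liproxstatin-1, 206 and 205 under ferrostatin-1, and 237, 264 and 232 CPM in controls. All 7 libraries with TNF-a lay above all 7 without it. The averaged log2 fold change was 0.70 (SE 0.054, adjusted p = 1.98e-06) by edgeR's quasi-likelihood test with Benjamini-Hochberg adjustment, as for all tests that follow. TPP1, a tripeptidyl peptidase mutated in a childhood form of neuronal ceroid lipofuscinosis, had 259 and 299.6 CPM under TNF-a plus liproxstatin-1, 209.5, 211 and 226 under TNF-a plus ferrostatin-1, and 277 and 261 CPM under TNF-a alone. TPP1 without TNF-a was at 232 and 210.2 under liproxstatin-1, 157 and 168 under ferrostatin-1, and 180.4, 182 and 189 CPM in controls. Liproxstatin-1 library 1 lay above the 3 libraries with TNF-a and ferrostatin-1, and the averaged change was 0.43 (SE 0.052, adjusted p = 6.57e-05).

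CTSL, a cysteine protease, had 44.2 and 38.7 CPM under TNF-a plus liproxstatin-1, 34.4, 37.7 and 35.7 under TNF-a plus ferrostatin-1, and 44.3 and 39.3 CPM under TNF-a alone. CTSL without TNF-a was at 39.9 and 41.6 under liproxstatin-1, 34.9 and 36.4 under ferrostatin-1, and 29.2, 24.4 and 28.1 CPM in controls. Controls were lowest, and both inhibitors alone came close to the TNF-a libraries. Its change was 0.62 (SE 0.11, adjusted p = 0.0032) for TNF-a alone against control, but 0.013 (SE 0.11, adjusted p = 0.959) within ferrostatin-1 and 0.025 (SE 0.12, adjusted p = 0.934) within liproxstatin-1, both not called, and 0.22 (SE 0.065, adjusted p = 0.0218) on average. CTSH, an aminopeptidase of the cathepsin family, had 191 and 169 CPM under TNF-a plus liproxstatin-1, 132, 128 and 125 under TNF-a plus ferrostatin-1, and 261 and 174 CPM under TNF-a alone. CTSH without TNF-a was at 214 and 227 under liproxstatin-1, 203 and 184 under ferrostatin-1, and 220.4, 224 and 205 CPM in controls. The 3 libraries with TNF-a and ferrostatin-1 were the lowest of all and close together, whereas the TNF-a libraries fell on either side of the controls. Its change was -0.59 (SE 0.14, adjusted p = 0.0109) within ferrostatin-1, a call lost without ferrostatin-1 library 1, and -0.29 (SE 0.083, adjusted p = 0.0166) on average. CTSB, a cysteine protease released when lysosomes leak, had 126 and 126 CPM under TNF-a plus liproxstatin-1, 131, 129 and 126 under TNF-a plus ferrostatin-1, and 175 and 148 CPM under TNF-a alone. CTSB without TNF-a was at 163 and 155 under liproxstatin-1, 141 and 145 under ferrostatin-1, and 167, 156 and 155 CPM in controls. The 5 libraries with TNF-a and an inhibitor were below all the others. Its log2 fold change was -0.34 (SE 0.094, adjusted p = 0.0328) within liproxstatin-1, a call lost in 10 of the 21 alternatives, and -0.16 (SE 0.051, adjusted p = 0.0335) on average. CTSC, CTSD and CTSZ had averaged changes of 0.10, 0.085 and -0.019, not called.

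Of 14 glycan hydrolases, 9 rose on average (GLA, MAN2B1, HEXA, GLB1, NEU1, GALNS, FUCA1, NAGLU and GUSB), SGSH fell, and IDS, GAA, MANBA and IDUA were not called (0.052 to 0.14 on the log2 scale). GLA, the alpha-galactosidase lacking in Fabry disease (ENSG00000102393, chromosome X, 101393273 to 101407990, minus strand), had 50.5 and 48.5 CPM under TNF-a plus liproxstatin-1, 50.0, 52.7 and 49.6 under TNF-a plus ferrostatin-1, and 51.8 and 49.2 CPM under TNF-a alone. GLA without TNF-a was at 28.3 and 32.2 under liproxstatin-1, 32.7 and 31.8 under ferrostatin-1, and 31.6, 32.6 and 31.1 CPM in controls. Its levels formed 2 separate bands, one for the 7 libraries with TNF-a and one for the 7 without it, with little spread in either. The log2 fold change was 0.68 (SE 0.054, adjusted p = 2.37e-06) on average and 0.67, 0.65 and 0.71 with no inhibitor, ferrostatin-1 and liproxstatin-1 as background. GLA overlaps RPL36A on the opposite strand, which had 248% of its count and fell by 0.35 on the log2 scale, and no source used here states whether the counting used strand.

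MAN2B1, the acid alpha-mannosidase, had 55.4 and 53.7 CPM under TNF-a plus liproxstatin-1, 57.9, 51.6 and 56.2 under TNF-a plus ferrostatin-1, and 72.8 and 62.9 CPM under TNF-a alone. MAN2B1 without TNF-a was at 37.4 and 34.9 under liproxstatin-1, 40.0 and 34.3 under ferrostatin-1, and 37.3, 43.4 and 42.6 CPM in controls. The libraries with TNF-a were again all above those without it, and the averaged change was 0.63 (SE 0.067, adjusted p = 2.32e-05). HEXA, the alpha chain of beta-hexosaminidase, had 199 and 190.2 CPM under TNF-a plus liproxstatin-1, 173, 182 and 163 under TNF-a plus ferrostatin-1, and 285 and 209 CPM under TNF-a alone. HEXA without TNF-a was at 156 and 153 under liproxstatin-1, 134 and 125 under ferrostatin-1, and 154, 161 and 144 CPM in controls. TNF-a library 1 was far above the other TNF-a library, though the lowest of the 7 libraries with TNF-a (163 CPM) was still above the highest of the 7 without it (161 CPM), and the averaged change was 0.48 (SE 0.07, adjusted p = 0.000267). GLB1, the acid beta-galactosidase, had 94.3 and 92.6 CPM under TNF-a plus liproxstatin-1, 89.2, 85.5 and 82.1 under TNF-a plus ferrostatin-1, and 123 and 99.4 CPM under TNF-a alone. GLB1 without TNF-a was at 74.5 and 73.0 under liproxstatin-1, 65.9 and 65.6 under ferrostatin-1, and 72.2, 82.9 and 68.2 CPM in controls. Control library 2 lay above the lowest library with TNF-a and ferrostatin-1, and the averaged change was 0.43 (SE 0.065, adjusted p = 0.000324). SGSH, which removes sulfate from heparan sulfate, had 27.5 and 30.9 CPM under TNF-a plus liproxstatin-1, 24.7, 26.1 and 26.6 under TNF-a plus ferrostatin-1, and 37.3 and 31.5 CPM under TNF-a alone. SGSH without TNF-a was at 38.6 and 37.3 under liproxstatin-1, 33.0 and 39.4 under ferrostatin-1, and 35.4, 31.2 and 36.7 CPM in controls. The 3 libraries with TNF-a and ferrostatin-1 and the 2 with TNF-a and liproxstatin-1 were below all others, while TNF-a alone against control was not called, at -0.0005 (SE 0.12, adjusted p = 1). The change was -0.49 (SE 0.12, adjusted p = 0.0146) within ferrostatin-1, a call lost without ferrostatin-1 library 3 or TNF-a plus ferrostatin-1 library 1, and -0.29 (SE 0.072, adjusted p = 0.00848) on average. SGSH and GALNS overlap other genes on the opposite strand (CARD14 and SLC26A11, with 19.5% and 23.7% of the count of SGSH, and TRAPPC2L, with 80.9% of that of GALNS).

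Among lipid hydrolases, LIPA, SMPD1 and PPT1 rose on average, and PSAP, ASAH1 and GALC were not called. LIPA, the acid lipase that frees cholesterol from its esters (ENSG00000107798, chromosome 10, 89213569 to 89414557, minus strand), had 74.1 and 72.1 CPM under TNF-a plus liproxstatin-1, 63.2, 62.3 and 56.8 under TNF-a plus ferrostatin-1, and 96.9 and 70.9 CPM under TNF-a alone. LIPA without TNF-a was at 55.3 and 56.1 under liproxstatin-1, 47.8 and 46.6 under ferrostatin-1, and 48.5, 48.6 and 47.1 CPM in controls. The libraries with TNF-a were all above those without it, and the averaged change was 0.52 (SE 0.07, adjusted p = 0.000141). The annotated span of LIPA covers IFIT1, IFIT3 and IFIT2 on the opposite strand. IFIT1 and IFIT3, interferon-induced genes, rose by 1.55 and 1.40 on the log2 scale and had 281% and 183% of the count of LIPA, and their part in its count was not tested. SMPD1, the acid sphingomyelinase, had 10.7 and 12.3 CPM under TNF-a plus liproxstatin-1, 8.79, 8.11 and 6.79 under TNF-a plus ferrostatin-1, and 14.6 and 11.3 CPM under TNF-a alone. SMPD1 without TNF-a was at 9.59 and 8.18 under liproxstatin-1, 8.00 and 6.15 under ferrostatin-1, and 8.03, 7.09 and 9.73 CPM in controls. TNF-a library 1 was highest and the groups overlapped, with an averaged change of 0.39 (SE 0.12, adjusted p = 0.0202). PPT1, a palmitoyl-protein thioesterase, had 249.7 and 234 CPM under TNF-a plus liproxstatin-1, 206, 212 and 205 under TNF-a plus ferrostatin-1, and 266 and 252 CPM under TNF-a alone. PPT1 without TNF-a was at 199 and 208 under liproxstatin-1, 179.8 and 169.8 under ferrostatin-1, and 199.6, 229 and 198 CPM in controls. Control library 2 lay above the 3 libraries with TNF-a and ferrostatin-1, and the averaged change was 0.27 (SE 0.05, adjusted p = 0.0015). GALC had raw counts of 17 and 0 under TNF-a plus liproxstatin-1, 0 in all 3 libraries with TNF-a and ferrostatin-1, 46 and 53 under TNF-a alone, 4 and 21 under liproxstatin-1, 55 and 0 under ferrostatin-1, and 27, 22 and 35 in controls. At these counts no fold is given, and no comparison called it.

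Of 9 membrane and sterol transport genes, NPC2, CLN3, MCOLN1, LAMP2 and LAMP1 rose on average, SCARB2, an abundant protein of the lysosomal membrane, fell (-0.19), and NPC1, CTNS and CD63 were not called. NPC2, the soluble protein that hands cholesterol to NPC1 (ENSG00000119655, chromosome 14, 74476192 to 74493347, minus strand), had 54.3 and 45.9 CPM under TNF-a plus liproxstatin-1, 31.8, 32.1 and 26.4 under TNF-a plus ferrostatin-1, and 53.5 and 41.0 CPM under TNF-a alone. NPC2 without TNF-a was at 30.7 and 28.6 under liproxstatin-1, 18.3 and 14.7 under ferrostatin-1, and 26.5, 31.0 and 20.3 CPM in controls. It was lowest in the ferrostatin-1 libraries, and within each background every library with TNF-a lay above every one without it. The log2 fold change was 0.83 (SE 0.11, adjusted p = 0.000141) on average and 0.86, 0.87 and 0.76 over control, ferrostatin-1 and liproxstatin-1. CLN3, a membrane protein mutated in juvenile neuronal ceroid lipofuscinosis, had 47.4 and 47.1 CPM under TNF-a plus liproxstatin-1, 41.4, 47.9 and 42.1 under TNF-a plus ferrostatin-1, and 59.5 and 48.4 CPM under TNF-a alone. CLN3 without TNF-a was at 31.2 and 30.8 under liproxstatin-1, 26.9 and 28.6 under ferrostatin-1, and 30.1, 36.1 and 29 CPM in controls. The 7 libraries with TNF-a were above the other 7, and the averaged change was 0.68 (SE 0.074, adjusted p = 2.97e-05).

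MCOLN1 had 12.1 and 15.6 CPM under TNF-a plus liproxstatin-1, 12.7, 13.4 and 11.8 under TNF-a plus ferrostatin-1, and 13.7 and 11.8 CPM under TNF-a alone. MCOLN1 without TNF-a was at 11.1 and 10.0 under liproxstatin-1, 9.13 and 10.9 under ferrostatin-1, and 8.60, 8.37 and 9.30 CPM in controls. The lowest library with TNF-a (11.8 CPM) was above the highest without it (11.1 CPM), and the averaged change was 0.42 (SE 0.088, adjusted p = 0.00299), but PNPLA6 overlaps MCOLN1 on the same strand, had 671% of its count and was itself higher by 0.46. LAMP2, a major glycoprotein of the lysosomal membrane, had 151 and 149 CPM under TNF-a plus liproxstatin-1, 114, 128 and 114 under TNF-a plus ferrostatin-1, and 104 and 138 CPM under TNF-a alone. LAMP2 without TNF-a was at 125 and 119 under liproxstatin-1, 96.5 and 95.2 under ferrostatin-1, and 102, 114 and 102 CPM in controls. Here TNF-a library 1 was the lowest of the libraries with TNF-a and within the range of controls, and the averaged change was 0.26 (SE 0.068, adjusted p = 0.0105).

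Of the 4 proton pump genes, 2 rose on average and 2 were not called, ATP6AP1 and ATP6V1A, at 0.12 and 0.10. ATP6V1H, a regulatory subunit of the cytosolic V1 sector, had 40.9 and 41.2 CPM under TNF-a plus liproxstatin-1, 35.8, 40.1 and 34.8 under TNF-a plus ferrostatin-1, and 41.7 and 40.4 CPM under TNF-a alone. ATP6V1H without TNF-a was at 32.0 and 29.6 under liproxstatin-1, 32.0 and 27.1 under ferrostatin-1, and 32.5, 33.1 and 32.2 CPM in controls. The groups with and without TNF-a did not overlap, and the averaged change was 0.36 (SE 0.061, adjusted p = 0.000843). ATP6V0D1, a subunit of the membrane V0 sector, had 115 and 117 CPM under TNF-a plus liproxstatin-1, 109.5, 104 and 100.1 under TNF-a plus ferrostatin-1, and 135 and 111 CPM under TNF-a alone. ATP6V0D1 without TNF-a was at 102 and 97.8 under liproxstatin-1, 90.8 and 90.8 under ferrostatin-1, and 90.2, 90.9 and 92.1 CPM in controls. The control libraries lay close together, and liproxstatin-1 library 1 was between the 3 libraries with TNF-a and ferrostatin-1. The averaged change was 0.28 (SE 0.055, adjusted p = 0.00186).

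Of the 4 regulators, TFEB and TFE3 fell on average with TNF-a, at -0.50 (SE 0.087, adjusted p = 0.000953) and -0.39 (SE 0.099, adjusted p = 0.00917), GRN rose and FLCN was not called. TFEB, the main activator of lysosomal genes (ENSG00000112561, chromosome 6, 41683978 to 41736259, minus strand), had 18.6 and 18.2 CPM under TNF-a plus liproxstatin-1, 19.7, 19.5 and 20.9 under TNF-a plus ferrostatin-1, and 31.7 and 22.9 CPM under TNF-a alone. TFEB without TNF-a was at 33.8 and 31.3 under liproxstatin-1, 30.3 and 31.8 under ferrostatin-1, and 31.6, 24.1 and 28.7 CPM in controls. The 5 libraries with TNF-a and an inhibitor were below all the others, while the TNF-a libraries lay just above and just below the range of the controls. Its change was -0.82 (SE 0.16, adjusted p = 0.00587) within liproxstatin-1, -0.63 (SE 0.14, adjusted p = 0.0103) within ferrostatin-1 and -0.043 (SE 0.15, adjusted p = 0.888) for TNF-a alone, which was not called. The call within ferrostatin-1 was lost without either ferrostatin-1 library, and that within liproxstatin-1 without liproxstatin-1 library 1 or TNF-a plus liproxstatin-1 library 2. TFE3, a paralog with the same binding preference (ENSG00000068323, chromosome X, 49028726 to 49043410, minus strand), had 104 and 113 CPM under TNF-a plus liproxstatin-1, 116, 109 and 114 under TNF-a plus ferrostatin-1, and 191 and 147 CPM under TNF-a alone. TFE3 without TNF-a was at 175 and 165 under liproxstatin-1, 183 and 199 under ferrostatin-1, and 151, 107 and 170.3 CPM in controls. Control library 2 was as low as the libraries with TNF-a and an inhibitor, and the rest of the controls were higher. Its change was -0.65 (SE 0.18, adjusted p = 0.0328) within liproxstatin-1, a call lost without any single library of those groups, -0.76 (SE 0.16, adjusted p = 0.00729) within ferrostatin-1, a call lost without ferrostatin-1 library 3, and 0.24 (SE 0.16, adjusted p = 0.366) for TNF-a alone, not called. The interactions of TNF-a with the inhibitors were not called for either gene, at -0.59 (SE 0.20, adjusted p = 0.175) and -0.78 (SE 0.22, adjusted p = 0.139) for TFEB and -1.0 (SE 0.23, adjusted p = 0.0971) and -0.89 (SE 0.24, adjusted p = 0.137) for TFE3, with ferrostatin-1 and liproxstatin-1 in that order.

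GRN, the precursor of the granulins and a lysosomal chaperone, had 713 and 728 CPM under TNF-a plus liproxstatin-1, 610.2, 560.5 and 548 under TNF-a plus ferrostatin-1, and 823 and 723 CPM under TNF-a alone. GRN without TNF-a was at 685 and 626 under liproxstatin-1, 529 and 541 under ferrostatin-1, and 624, 620.1 and 582 CPM in controls. It was highest in TNF-a library 1 and rose by 0.34 (SE 0.081, adjusted p = 0.0161) with TNF-a alone, a call lost without TNF-a library 1 or control library 3, and 0.19 (SE 0.049, adjusted p = 0.00925) on average. FLCN (ENSG00000154803, chromosome 17, 17212212 to 17237188, minus strand) had 38.0 and 38.4 CPM under TNF-a plus liproxstatin-1, 24.9, 22.6 and 21.9 under TNF-a plus ferrostatin-1, and 39.6 and 36.3 CPM under TNF-a alone. FLCN without TNF-a was at 40.4 and 36.0 under liproxstatin-1, 25.4 and 29.8 under ferrostatin-1, and 30.1, 26.5 and 29.7 CPM in controls. Its levels formed 2 bands: all libraries of TNF-a plus liproxstatin-1, TNF-a alone and liproxstatin-1 alone were above all libraries of the other 3 groups. TNF-a changed it by 0.40 (SE 0.11, adjusted p = 0.0335) over control, a call lost in 13 of the 21 alternatives, and by 0.048 (SE 0.067, adjusted p = 0.635) on average, not called. FLCN overlaps MPRIP on the opposite strand, which had 648% of its count and fell by 0.38 with TNF-a on average.

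**Figure D3:**
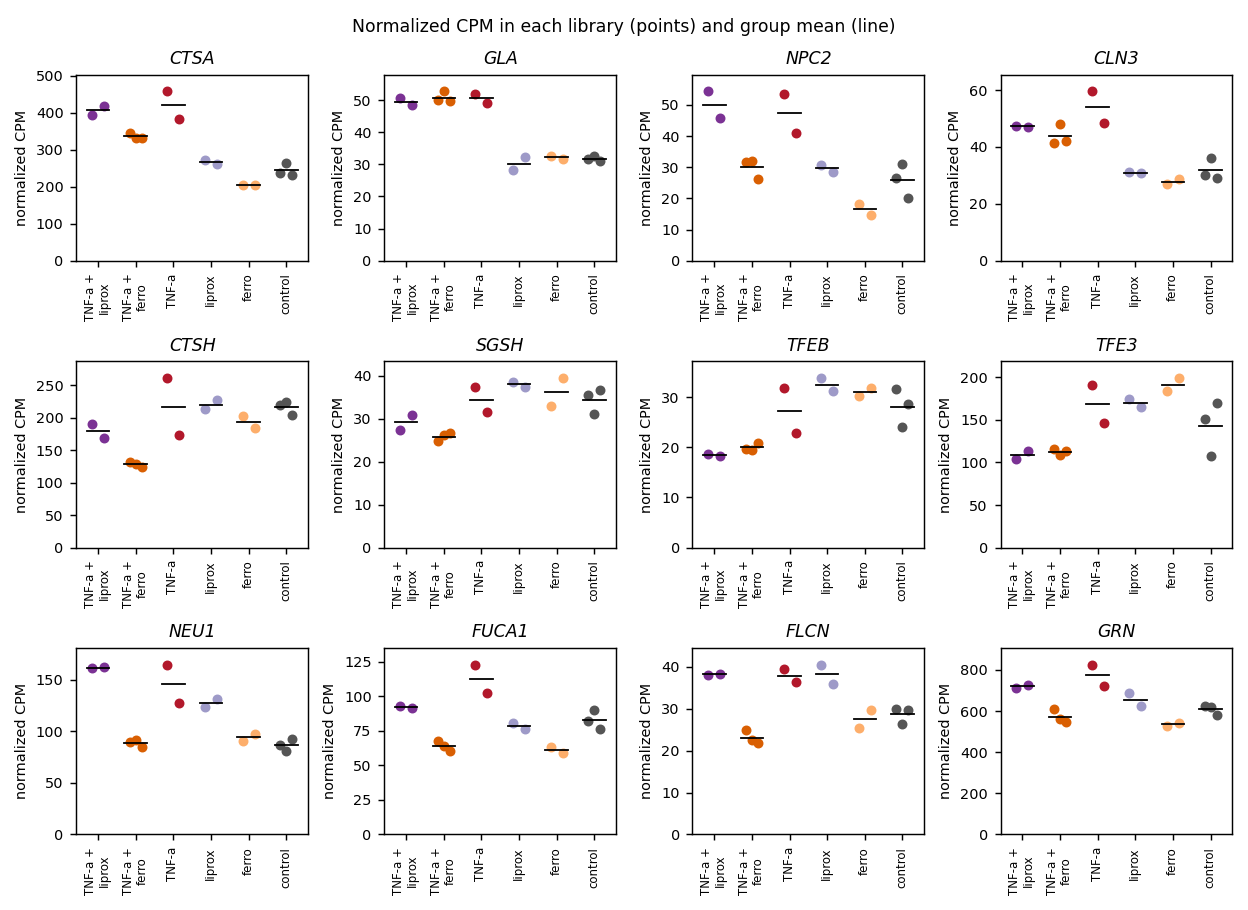
Normalized CPM of 12 lysosomal genes in each library, by group, with the group mean as a line; all axes start at 0. GLA and CTSA are higher in all 7 libraries with TNF-a, TFEB and TFE3 are low in the libraries with TNF-a and an inhibitor, and NEU1, FUCA1, FLCN and GRN are lower under TNF-a plus ferrostatin-1 than under TNF-a plus liproxstatin-1.

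Ferrostatin-1 added to TNF-a lowered 17 of the 45 lysosomal genes relative to TNF-a alone and raised 0 (37.8% called, against 5.52% of all tested genes, 1.77% higher and 3.75% lower). The median log2 fold change was -0.38, against -0.011 over all genes, and 41 of the 45 estimates were below 0. The 17 were the proteases CTSB, CTSD, CTSH and CTSZ, the glycosidases and sulfatase FUCA1, NEU1, GALNS, HEXA and NAGLU, the lipid genes PSAP, LIPA and PPT1, the membrane proteins LAMP1 and CD63, the pump partner ATP6AP1, and FLCN and GRN. The count depended on single libraries: it was 5 without TNF-a library 1, 35 (33 lower) without TNF-a library 3, 6, 2 and 2 without TNF-a plus ferrostatin-1 library 1, 2 or 3, 9 without control library 1, 8 without either TNF-a plus liproxstatin-1 library, 10 without either liproxstatin-1 library and 11 without either ferrostatin-1 library. It was 28 by DESeq2, 24 with a stricter filter, 12 with relative log expression scaling, 10 with no filter, 0 by limma voom with quality weights and 0 when the 2 groups were fitted alone. FUCA1 and NEU1 lost their call in 2 of 21 alternatives, these last 2, and CTSB and NAGLU in 18. Estimates below 0 numbered 41 without TNF-a library 1 (median -0.25) and 40 without TNF-a library 3 (median -0.49). Both refits use the same TNF-a plus ferrostatin-1 libraries, so they are not independent of each other or of the fit with all libraries. The share of all genes below 0 is not given here for any of these fits. The fibroblast marker sum was also higher under TNF-a alone, as given above, and its part in these differences was not tested.

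FUCA1, the lysosomal fucosidase, had 92.8 and 91.4 CPM under TNF-a plus liproxstatin-1, 67.6, 63.6 and 60.6 under TNF-a plus ferrostatin-1, and 122 and 102 CPM under TNF-a alone. FUCA1 without TNF-a was at 80.5 and 76.5 under liproxstatin-1, 63.4 and 58.9 under ferrostatin-1, and 82.1, 89.7 and 76.1 CPM in controls. The libraries with TNF-a and ferrostatin-1 overlapped those with ferrostatin-1 alone, and the difference from TNF-a alone was -0.81 (SE 0.10, adjusted p = 0.00406). NEU1, the lysosomal sialidase (ENSG00000204386, chromosome 6, 31857659 to 31862822, minus strand), had 162 and 162 CPM under TNF-a plus liproxstatin-1, 89.8, 91.7 and 84.7 under TNF-a plus ferrostatin-1, and 164 and 128 CPM under TNF-a alone. NEU1 without TNF-a was at 124 and 131 under liproxstatin-1, 90.9 and 97.5 under ferrostatin-1, and 86.8, 81.4 and 92.3 CPM in controls. Levels under TNF-a plus ferrostatin-1 were within the range of controls, and the difference from TNF-a alone was -0.72 (SE 0.11, adjusted p = 0.00825). CTSH differed by -0.76 (SE 0.14, adjusted p = 0.0172) and FLCN by -0.72 (SE 0.11, adjusted p = 0.0102). FUCA1, NEU1, CTSH and FLCN were below TNF-a library 3, too, in every TNF-a plus ferrostatin-1 library, and without TNF-a library 1 their log2 differences were -0.68, -0.53, -0.44 and -0.65.

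CTSZ had 407 and 376 CPM under TNF-a plus liproxstatin-1, 382, 339.8 and 342 under TNF-a plus ferrostatin-1, and 544 and 445 CPM under TNF-a alone. CTSZ without TNF-a was at 426 and 423 under liproxstatin-1, 396 and 394 under ferrostatin-1, and 427, 433 and 418 CPM in controls. Its difference between TNF-a plus ferrostatin-1 and TNF-a alone was -0.48 (SE 0.091, adjusted p = 0.0212). LAMP1, the other major membrane glycoprotein, had 345 and 341 CPM under TNF-a plus liproxstatin-1, 299, 285 and 287 under TNF-a plus ferrostatin-1, and 404 and 365 CPM under TNF-a alone. LAMP1 without TNF-a was at 340.3 and 338 under liproxstatin-1, 272 and 271 under ferrostatin-1, and 308, 332 and 314 CPM in controls. Its difference between TNF-a plus ferrostatin-1 and TNF-a alone was -0.41 (SE 0.072, adjusted p = 0.0162). PSAP had 1089 and 1085 CPM under TNF-a plus liproxstatin-1, 993, 1019 and 960.0 under TNF-a plus ferrostatin-1, and 1391 and 1178 CPM under TNF-a alone. PSAP without TNF-a was at 1108 and 1100.3 under liproxstatin-1, 1036 and 1001 under ferrostatin-1, and 999, 949.9 and 1014 CPM in controls. Its difference between TNF-a plus ferrostatin-1 and TNF-a alone was -0.38 (SE 0.076, adjusted p = 0.0254). In all 3 the libraries with TNF-a and ferrostatin-1 were below both TNF-a libraries, and GRN followed them at -0.43 (SE 0.081, adjusted p = 0.02).

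**Figure D4:**
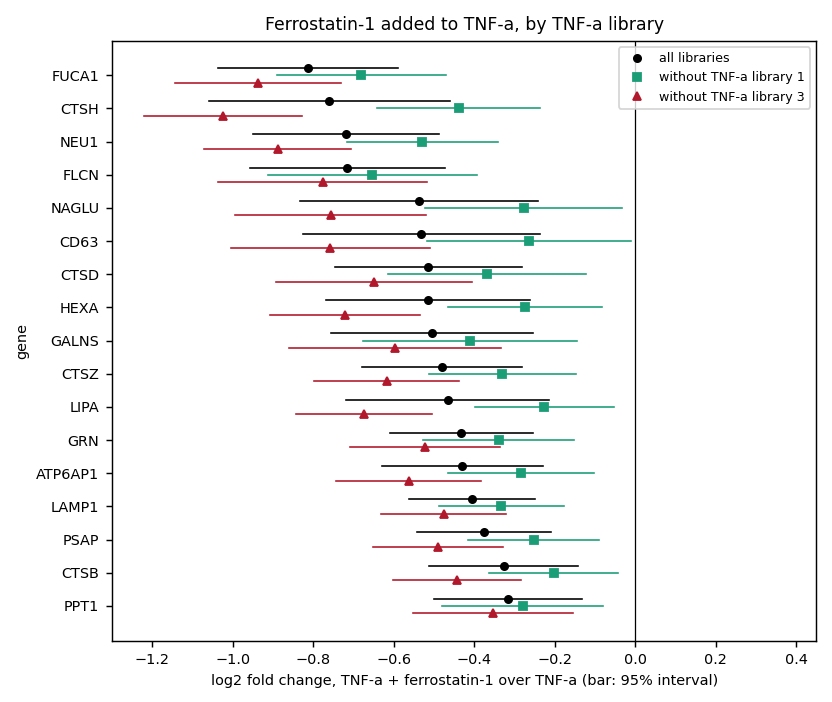
Log2 fold change of TNF-a plus ferrostatin-1 over TNF-a for the 17 lysosomal genes called with all libraries, with 95% intervals, for all libraries (circles), without TNF-a library 1 (squares) and without TNF-a library 3 (triangles). Every estimate is below 0, and each is nearer to 0 without TNF-a library 1 than without TNF-a library 3. The genes were chosen by their call with all libraries, and the refits reuse these libraries, so the shared sign is no independent result.

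Liproxstatin-1 added to TNF-a changed 0 of the 45 genes by edgeR relative to TNF-a alone, with 15 at an unadjusted p below 0.05, 5 called by DESeq2 and 0 by limma voom (0.343% of all genes called by edgeR). The median was -0.17. Without TNF-a library 1 the median was -0.0038 and the count 0, and without TNF-a library 3 the median was -0.24 and the count 23 (5 higher and 18 lower). The inhibitors alone also called 0 of the 45 genes by edgeR. For liproxstatin-1 against control the median was 0.13, 6 genes had an unadjusted p below 0.05, DESeq2 called 5 and limma voom 8 (0.0586% of all genes called by edgeR). For ferrostatin-1 against control the median was -0.11, 12 genes had an unadjusted p below 0.05, DESeq2 called 4 and limma voom 11 (0.564% of all genes called by edgeR). CTSL had 39.9 and 41.6 CPM under liproxstatin-1, 34.9 and 36.4 CPM under ferrostatin-1 and 29.2, 24.4 and 28.1 CPM in controls, with log2 fold changes over control of 0.58 (SE 0.11, adjusted p = 0.0879) and 0.39 (SE 0.11, adjusted p = 0.152), both not called.

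The inhibitors were compared with each other at the same dose and time in 2 pairs, without and with TNF-a. Both are radical-trapping small molecules of different scaffolds. With TNF-a, liproxstatin-1 gave higher levels than ferrostatin-1 for NEU1, FLCN and FUCA1 and lower levels for 0 genes (6.67% called, against 0.766% of all genes, 0.681% higher and 0.0857% lower). NEU1 had 162 and 162 CPM under TNF-a plus liproxstatin-1, against 89.8, 91.7 and 84.7 CPM under TNF-a plus ferrostatin-1, a log2 difference of 0.87 (SE 0.11, adjusted p = 0.0032). FLCN had 38.0 and 38.4 CPM under TNF-a plus liproxstatin-1, against 24.9, 22.6 and 21.9 CPM under TNF-a plus ferrostatin-1, a difference of 0.72 (SE 0.11, adjusted p = 0.013). FUCA1 had 92.8 and 91.4 CPM under TNF-a plus liproxstatin-1, against 67.6, 63.6 and 60.6 CPM under TNF-a plus ferrostatin-1, a difference of 0.53 (SE 0.10, adjusted p = 0.0426). The groups did not overlap in these 3 genes. They also did not overlap in many genes that were not called, such as CTSA, LAMP1 and GRN, so this does not set the 3 apart. The 3 calls became 0 without either TNF-a plus liproxstatin-1 library, 1 without TNF-a plus ferrostatin-1 library 2 or 3, 9 without either TNF-a library, 8 by DESeq2, 17 by limma voom and 10 when the 2 groups were fitted alone. FUCA1 lost its call in 13 of 21 alternatives, FLCN in 4 and NEU1 in 2.

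Without TNF-a, 0 genes differed between liproxstatin-1 and ferrostatin-1 by edgeR (0.104% of all genes, 0.0857% higher and 0.018% lower). There were 15 genes at an unadjusted p below 0.05, DESeq2 called 4 and limma voom 11. The estimates for the 3 genes were 0.44 (SE 0.12, adjusted p = 0.302) for NEU1, 0.47 (SE 0.12, adjusted p = 0.291) for FLCN and 0.36 (SE 0.11, adjusted p = 0.457) for FUCA1. Of the 45 estimates, 37 were above 0 without TNF-a (82.2%, median 0.19, against 47.6% of all genes) and 37 with it (82.2%, median 0.22, against 50.3%), in comparisons that share no library. The largest without TNF-a was NPC2, at 0.84 (SE 0.21, adjusted p = 0.221), and with TNF-a its difference was 0.73 (SE 0.18, adjusted p = 0.131), neither called. A missing call does not show that the compounds gave equal levels: the 95% interval, not adjusted for the number of genes, of the log2 difference with TNF-a was -0.23 to 0.16 for GLA, -0.44 to 0.20 for TFEB, -0.42 to 0.30 for TFE3 and 0.19 to 0.79 for CTSH.

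**Figure D5:**
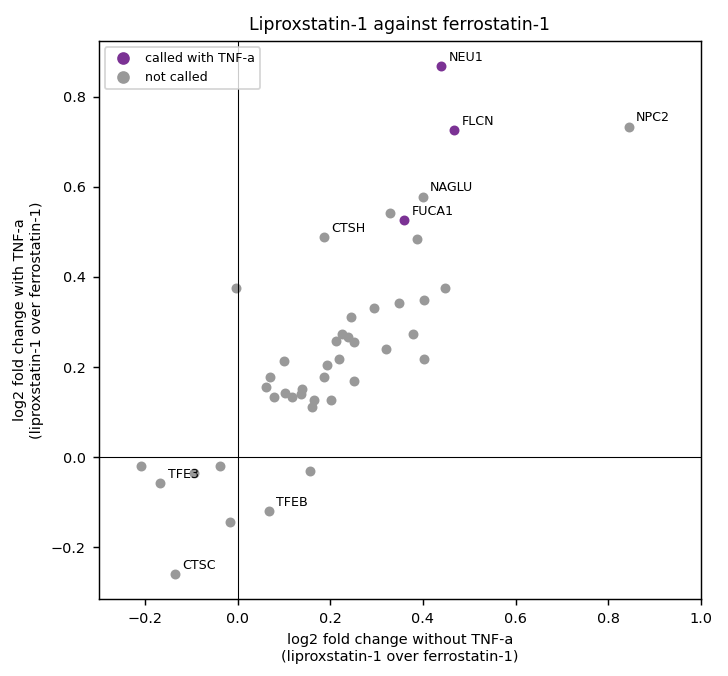
Log2 fold change of liproxstatin-1 over ferrostatin-1 without TNF-a (horizontal) and with TNF-a (vertical) for 44 lysosomal genes (GALC left out). NEU1, FLCN and FUCA1, called with TNF-a, lie in the upper right, as does NPC2, which was not called, and TFEB and TFE3 lie near 0 on both axes.

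Other genes of the lysosome and its surroundings were counted in 8 further lists, with log2 fold changes by the same fit in brackets or beside the gene. The share called with TNF-a on average over backgrounds is to be read against the 33.9% of all tested genes (17.6% higher and 16.2% lower). TNF-a raised 3 and lowered 1 of 8 further lysosomal proteases (50.0% called), with 2.47 for CTSS and 1.12 for CTSO, cysteine cathepsins, and -0.40 for LGMN, the asparaginyl endopeptidase. Of 22 further hydrolases and cofactors 7 rose and 2 fell (40.9% called, near the share of all genes), among them GM2A, the activator of ganglioside breakdown by HEXA (1.09), and ACP5, an acid phosphatase (1.43). Of 25 further membrane proteins 8 rose and 0 fell (32.0% called, near that share), including LAPTM5 (3.59), known mainly from blood cells, the sphingolipid and lysolipid exporter SPNS1 (0.56), and CLCN7, the chloride and proton exchanger (0.47). LAPTM5 and CTSS are also abundant in leukocytes, whose marker PTPRC was at 0 in every library with TNF-a. LYZ, also on the leukocyte list, was at 762 to 1137 CPM in those libraries.

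Of 16 further proton pump subunits 4 rose and 1 fell (31.2% called, near the 33.9% of all genes), with TCIRG1 at 0.61, ATP6V0E2 at 0.60 and ATP6V1C2 at -0.82. Of 15 genes that tag or carry enzymes by mannose 6-phosphate 4 rose and 2 fell (40.0% called, also near it), with GNPTG, a subunit of the tagging enzyme, at 0.58, the sorting adaptor GGA2 at 0.39 and AP3D1, an adaptor subunit, at -0.28. Of 21 mTORC1 genes at the lysosome 2 rose and 1 fell (14.3% called, below the 33.9% of all genes), with the Ragulator subunit LAMTOR4 at 0.53 and DEPDC5 and NPRL3, of the GATOR1 complex, at 0.23 and -0.34. Of 26 autophagy genes 12 rose and 3 fell (57.7% called): the cargo receptors OPTN (1.2) and SQSTM1 (0.76) and the membrane protein ATG9B (0.92) were among those higher. Of 13 cystatins and sensors of membrane damage 5 rose and 0 fell (38.5% called, near that of all genes), with the galectin LGALS9 at 0.65 and the cathepsin inhibitors CSTB and CST3 at 0.28 and 0.28.

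The inhibitors called few genes of these lists, and the most, 11 of 146 tested (7.53%), for ferrostatin-1 added to TNF-a (5.52% of all tested genes). This count and the genes named below are given with all libraries only, TNF-a library 1 included. Ferrostatin-1 alone lowered GM2A (-0.96) and raised SQSTM1 (0.62) relative to control. With TNF-a present, ferrostatin-1 lowered RRAGC, a Rag GTPase that recruits mTORC1 and acts with FLCN (-0.76), and the Ragulator subunit LAMTOR1 (-0.49), relative to TNF-a alone. It raised AP1G1, an adaptor subunit (0.74), and lowered the mannose 6-phosphate receptor M6PR (-0.36), the tethering subunit VPS18 (-0.47) and the GTPase RAB7A (-0.29). LGMN (-0.44), CLCN7 (-0.42) and ATP6V1B2 (-0.35) were also lower. Liproxstatin-1 gave higher levels of RRAGC (0.72) and ATP6V1C2 (1.53) than ferrostatin-1 when both were given with TNF-a.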

How the data were processed

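Poly(A) RNA was sequenced from 14 libraries of HT-29 cells, with dUTP strand marking per the labels' protocols. The tools named in the submitters' processing notes include HISAT2 2.0.4, StringTie 1.3.4d and cutadapt 1.9. No source used here names the genome build, annotation, counter or strand setting. The authors deposited whole-number counts per gene and FPKM values. FPKM values of the control libraries were used, for levels between genes, and the 11 other FPKM columns were not used.

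Counts were analysed with edgeR 4.0.16 (R 4.3.3). Genes passing filterByExpr were kept (22179), libraries were scaled by TMM (factors 0.947 to 1.05), and 1 quasi-likelihood model of 6 groups was fitted. CPM values are scaled by these factors. Benjamini-Hochberg adjustment ran over all tested genes, and an adjusted p below 0.05 was called. Standard errors are the log2 fold change over the root of its F, and intervals are 95%. The fit was tested on simulated data.

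Values of every library are given for the regulators, up to 4 genes per role with the smallest adjusted p for TNF-a averaged, up to 8 called per inhibitor comparison, and up to 4 that fell with TNF-a per comparison. Of further lists, up to 3 called genes are named for TNF-a and up to 2 per inhibitor comparison, and some that this rule names are not reported here. The members, lists and rules were chosen with earlier results of these data known. Library numbers are those of the table's columns. In 3 groups the columns are numbered 1 and 3 and the labels 1 and 2, so these columns were matched by group. Each result was recomputed with DESeq2 1.42.0, limma 3.58.1 voom with quality weights, scaling by relative log expression, a stricter filter (CPM of 1 or more in 3 libraries) and none, the compared groups alone, a block for replicate number, and each library left out.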

Additional observations from a re-analysis of the deposited data

How the results depend on the processing

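Each comparison was recomputed under 20 or 21 alternatives. For single genes, 98 results of the 28 genes named by rule gave 2036 alternative values: 1761 kept their side of the threshold, 211 lost a call and 64 gained one. The sign changed in 27 of the 2036, in 0 of which the value was called before or after the change. For TNF-a averaged over backgrounds, the count of 29 stayed within 1.5 times of that under every alternative (22 to 34). Calls for TNF-a alone against control (26 with all libraries) were 9 by limma voom with quality weights and 0 with only the compared groups. Within ferrostatin-1 (12) they were 21 by voom and 20 with only the compared groups, and within liproxstatin-1 (10) they were 24 and 21. For ferrostatin-1 added to TNF-a (17) they were 28 by DESeq2, 24 with the stricter filter, 10 with no filter, 0 by voom and 0 with only the compared groups. For liproxstatin-1 against ferrostatin-1 with TNF-a (3) they were 8 by DESeq2, 17 by voom and 10 with only the compared groups. Of the comparisons with 0 calls, DESeq2 gave 5 for liproxstatin-1 added to TNF-a, 4 and 5 for ferrostatin-1 and liproxstatin-1 against control, 4 for liproxstatin-1 against ferrostatin-1, and 8 and 5 for the interactions of TNF-a with ferrostatin-1 and liproxstatin-1. There voom gave 11 and 8 for the inhibitors against control and 11 between them.

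With each library left out in turn, the counts ran from 13 to 34 for TNF-a alone, 6 to 20 within ferrostatin-1, 3 to 20 within liproxstatin-1, 2 to 35 for ferrostatin-1 added to TNF-a, 0 to 23 for liproxstatin-1 added to TNF-a, and 0 to 9 between the inhibitors with TNF-a. They ran from 0 to 3 for ferrostatin-1 and 0 to 4 for liproxstatin-1 against control, 0 to 2 between them, and 0 to 26 and 0 to 23 for the interactions with ferrostatin-1 and liproxstatin-1. Where the library is named above, the highest counts came from leaving out TNF-a library 1 or 3. Several of the lowest came from leaving out a library of the inhibitor groups compared. The cause was not tested.

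The replicate numbers did not pair the libraries: deviations of same-numbered libraries correlated at -0.0962 to 0.128, with 1 of 28 pairs above 0.1, and not every library correlated best with its own number. With a replicate block the counts were 25 for TNF-a averaged, 22 for TNF-a alone, 11 within ferrostatin-1, 6 within liproxstatin-1, 9 for ferrostatin-1 added to TNF-a and 2 between the inhibitors with TNF-a.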
